A study of Mus musculus with 4 samples.

Results

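The genes described here are S1pr1, Klf2 and Cd69, known for their part in lymphocyte egress, and the related genes S1pr4 and Klf6, out of 26421 genes listed in either of the 2 deposited count tables. These 5 are called egress genes for short. They were chosen by name, with earlier results of these data known. All 5 had a row in both tables and all 5 passed the filter on low counts. They were read in 7013 single bone marrow cells of C57BL/6 mice, from wild-type (WT) mice and from G3SEKO mice, which lack the GATA3-related tandem super-enhancers (G3SE) after CRISPR-Cas9 editing. The cells were alpha lymphoid progenitors (αLPs), sorted as lineage-negative CD127+ CD135- LPAM-1+ cells with CD3e and NK1.1 among the lineage markers. Some of the kept cells still carried T or NK marker genes, as given below. Cells of several mice were pooled, and no cell can be traced to an animal in experiment 2. The deletion was in the germline and not limited to αLPs, and the labels do not say which G3SEKO line was used. The mice were not given any treatment that the labels record, and the study's methods give an age of 6 to 12 weeks and both sexes for its mice in general.

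Sphingosine 1-phosphate (S1P) is abundant in blood and lymph and scarce in the tissue space of lymphoid organs. Lymphocytes leave along this gradient when they carry the S1P receptor encoded by S1pr1. The transcription factor KLF2 switches S1pr1 on, and the early activation antigen CD69 binds the receptor and takes it off the cell surface. S1pr4 encodes another S1P receptor of blood cells, and Klf6 encodes a Kruppel-like factor that is induced quickly in many cell types.

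Each cell was placed in 1 of 5 gates by 3 genes, each counted as present at ln(1 + reads per 10000 reads of the cell) of at least 1. Zbtb16 marks innate lymphoid cell (ILC) progenitors, Icos marks commitment to the ILC2 lineage, and Il1rl1 encodes ST2, the IL-33 receptor of ILC2s. The gates were Zbtb16+Icos-, Zbtb16+Icos+ and Zbtb16-Icos+, all without Il1rl1, then Il1rl1+ whatever the other genes, and cells negative for all 3. Gates are called by their genes. Among markers that did not define the gates, the ILC progenitor markers Pdcd1, Tox, Tox2, Tcf7 and Il18r1 were all lower in WT Il1rl1+ than in WT Zbtb16+Icos- cells past the threshold of the test below, and the ILC2 marker Il17rb was higher. Rora, also on the ILC2 list, went the other way past the threshold, with a log2 difference of -1.83.

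For 3 of the 5 genes RefSeq (GRCm38.p6) gave a promoter window, and they are shown because the 2 Kruppel-like factor genes and the S1P receptor genes are compared throughout. Each window is the 250 bases before the annotated start, written 5′ to 3′ on the strand of the gene. Capitals mark matches, on either strand, to CACCC (the core of many Kruppel-like factor sites, GGGTG on the other strand), GATAA (the core of many GATA sites, TTATC on the other strand) or CTANNNNTAG (the outer letters of MEF2 sites). S1pr1 and Cd69 are named only. The windows lie at chr8:72318812-72319061 on the plus strand for Klf2, at chr13:5861239-5861488 on the plus strand for Klf6, and at chr10:81500138-81500387 on the minus strand for S1pr4.
Klf2: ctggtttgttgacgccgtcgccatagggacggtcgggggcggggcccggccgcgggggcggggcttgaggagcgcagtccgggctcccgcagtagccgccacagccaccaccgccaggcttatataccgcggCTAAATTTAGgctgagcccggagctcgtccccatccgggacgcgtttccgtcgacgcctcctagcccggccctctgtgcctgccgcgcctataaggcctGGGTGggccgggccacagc
Klf6: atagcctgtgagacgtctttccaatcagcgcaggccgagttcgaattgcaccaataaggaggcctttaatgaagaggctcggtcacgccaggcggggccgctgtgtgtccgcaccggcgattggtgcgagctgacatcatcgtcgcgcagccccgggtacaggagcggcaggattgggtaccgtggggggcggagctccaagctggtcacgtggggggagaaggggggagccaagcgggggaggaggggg
S1pr4: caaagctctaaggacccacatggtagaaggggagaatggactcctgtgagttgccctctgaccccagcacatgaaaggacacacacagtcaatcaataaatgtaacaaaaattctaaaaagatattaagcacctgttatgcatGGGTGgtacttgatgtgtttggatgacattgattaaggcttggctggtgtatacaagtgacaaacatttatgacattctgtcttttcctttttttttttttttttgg

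The Klf2 window had a GC content of 71.2% and held 1 match to CTANNNNTAG, from 118 to 109 bases before the start, and 1 match to CACCC on the other strand, from 19 to 15 bases before it. The S1pr4 window had a GC content of 38.8% and held 1 match to CACCC on the other strand, 107 to 103 bases before the start. The Klf6 window held none of the 3 letter strings. Of 32841 windows of this length, 52.0% held CACCC, 22.6% held GATAA and 3.203% held CTANNNNTAG, so the CTANNNNTAG match in Klf2 was the least common of these. A match is a string of letters and not a binding site. In the GENCODE annotation of the same build, S1pr1 lies on chr3 from 115710433 to 115715072 on the minus strand and Cd69 on chr6 from 129267325 to 129275436 on the minus strand. That annotation starts Klf2 at 72319033 and Klf6 at 5861482. By it the last bases of these 2 windows, with the CACCC match of Klf2, lie inside the genes.

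The cells came from 2 experiments, each with both genotypes combined in a single library and told apart by hashtag antibodies. Experiment 1 kept 681 WT and 43 G3SEKO cells and experiment 2 kept 5130 WT and 1159 G3SEKO cells. The label of experiment 2 lists its hashtags A0302 and A0303 both under WT, and cells with A0303 were taken as G3SEKO. Gata3, the gene near the deleted enhancers, was at 1161 and 994 CPM in WT Zbtb16-Icos+ cells and at 507 and 438 CPM in G3SEKO Zbtb16-Icos+ cells of experiments 1 and 2. The median cell held 396198 (WT) and 509911 (G3SEKO) reads in experiment 1 but 29677 and 42814 in experiment 2, and 5 barcodes of kept cells occurred in both experiments. All G3SEKO sums of experiment 1 rest on few cells, namely 11, 9, 7, 2 and 14 in the order of the gates above, against 213, 162, 345, 50 and 389 in experiment 2. The 2 cells of the Il1rl1+ gate were too few for the test.

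Reads were summed per gate, genotype and experiment and are given as counts per 1000000 reads (CPM). In such a sum, fewer expressing cells and less RNA per cell cannot be told apart, so the share of cells with a read is given as well. For that share every cell was thinned to the same number of reads, and intervals are exact (Clopper-Pearson) 95% binomial intervals, which cover counting error only because reads are not independent molecules. Differences were tested with edgeR's quasi-likelihood test in 1 fit over 19 of the 20 sums, with experiment as a block and Benjamini-Hochberg adjustment over 21047 genes. The threshold was an adjusted p of 0.05. In Il1rl1+ cells, the G3SEKO side of the fit is the single sum of experiment 2, which is assumed to vary like the other groups.

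None of the 5 egress genes passed the threshold in any of the 7 comparisons. Over all 21047 genes the share called was 0.257% for WT Il1rl1+ against WT Zbtb16+Icos- cells and 0.0143% for WT Il1rl1+ against WT Zbtb16-Icos+ cells. It was 0% for G3SEKO against WT in the Zbtb16+Icos-, Zbtb16+Icos+ and Zbtb16-Icos+ gates, 0.019% in Il1rl1+ cells and 0% for the interaction of genotype and gate. At an unadjusted p under 0.05 there were 3 of the 35 tests of the egress genes, namely Klf6 between WT gates and S1pr1 between genotypes in Zbtb16-Icos+ and in Il1rl1+ cells. Over all genes, 2.59 to 7.21% of tests had such a p in the 7 comparisons, so a count of this size is near the background. With this few sums and this few calls over all genes, the values below are mainly descriptions of levels. Where the DESeq2 Wald test or another setting called an egress gene, this is said beside it.

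**Figure D1:**
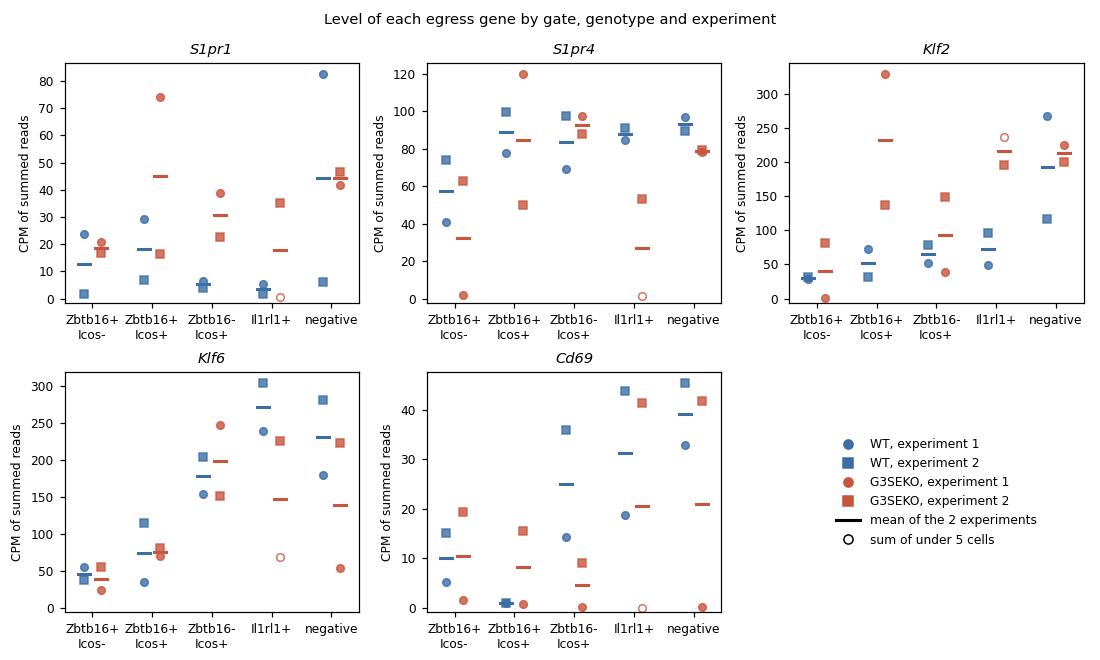
Level of each egress gene in CPM of summed reads (y axis, linear, from 0) by gate (x axis), with WT in blue, G3SEKO in red, circles for experiment 1, squares for experiment 2, short lines for the mean of the 2 experiments and open symbols for sums of under 5 cells. Klf6 in WT cells climbs from 37.0 and 55.2 CPM in Zbtb16+Icos- cells to 305.1 and 239.6 CPM in Il1rl1+ cells, and S1pr1 in Zbtb16-Icos+ cells is at 22.7 and 38.7 CPM in G3SEKO against 3.87 and 6.48 CPM in WT.

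S1pr1, the receptor on which egress depends, was low in WT Zbtb16-Icos+ and Il1rl1+ cells and stood higher in G3SEKO cells of the same gates in experiment 2. In WT cells its level in experiments 1 and 2 was 23.7 and 1.65 CPM in Zbtb16+Icos-, 29.3 and 6.94 CPM in Zbtb16+Icos+, 6.48 and 3.87 CPM in Zbtb16-Icos+, 5.17 and 1.64 CPM in Il1rl1+ and 82.5 and 5.96 CPM in negative cells. In G3SEKO cells the same levels were 20.8 and 16.6 CPM, 74.2 and 16.2 CPM, 38.7 and 22.7 CPM, 0.741 and 35.1 CPM, and 41.9 and 46.4 CPM. The genotypes did not overlap in the Zbtb16-Icos+ gate and overlapped in the other 4 gates. How many of all genes lacked such overlap was not counted, so gaps of this kind are descriptions only, here and for the genes below.

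The joint fit put S1pr1 at a log2 difference of 2.53 (SE 0.99) for G3SEKO against WT in Zbtb16-Icos+ cells, with an unadjusted p of 0.0258 and an edgeR adjusted p of 0.910. The 2 experiments gave nearly the same log2 ratio there, 2.55 ± 0.023 (mean ± SD, n = 2 experiments). The weight of experiment 1 in this is small, because 1 of its 7 G3SEKO cells supplied 94.4% of the S1pr1 reads and none of the 7 kept an S1pr1 read after thinning. In experiment 2 the reads were spread wider, with 17.4% from the top cell of 345.

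In Il1rl1+ cells the log2 difference of S1pr1 between genotypes was 4.33 (SE 1.17), with an unadjusted p of 0.00318 and an edgeR adjusted p of 0.527. DESeq2 called it, at a log2 difference of 4.52 and an adjusted p of 0.00328, while over all 11 alternatives the adjusted p of this comparison ranged from 0.00328 to 1. The median log2 difference of all genes in this comparison was -0.68. A single cell supplied 67.8% of the S1pr1 reads among the 50 G3SEKO Il1rl1+ cells, and only 2 of the 50 kept a read after thinning. Markers of other cells differed in this gate too. In experiment 2 the WT and G3SEKO sums were 205 and 2565 CPM for the ILC progenitor markers, 26.1 and 299 CPM for the LTi and ILC3 markers, 19.9 and 139 CPM for the NK and ILC1 markers, 74.0 and 300.6 CPM for the T lineage markers and 1999 and 725 CPM for the ST2+ ILC2 markers. Of these, the progenitor markers Il18r1 and Pdcd1 passed the threshold. A T or NK marker means, here and below, Cd3d, Cd3e, Cd3g, Tbx21, Eomes, Klrb1c, Ncr1 or Klrd1 at the level of the gate genes. Without the cells that carried a T or NK marker the log2 difference of S1pr1 was 4.67, and the part of the marker lists was not tested. With the gates set at 1 read the log2 difference was 1.63. The difference of this difference from that in Zbtb16+Icos- cells was 3.0 (SE 1.46, edgeR adjusted p = 0.969), and its sign turned with the gates set at 1 read.

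At equal depth in experiment 2, an S1pr1 read was found in 5 of 574 WT Zbtb16-Icos+ cells (0.871%, interval 0.283 to 2.02%) and in 14 of 345 G3SEKO cells (4.06%, 2.24 to 6.71%). Among negative cells it was found in 1.03% of WT (0.445 to 2.02%) and 9.25% of G3SEKO cells (6.57 to 12.6%). In Zbtb16+Icos- cells the share was 0 of 128 in WT, which allows up to 2.84%, and 3.76% in G3SEKO (1.64 to 7.27%). Before thinning, 2 of these 128 WT cells and 12 of 213 G3SEKO cells held a read. In these 3 gates of experiment 2 S1pr1 was found in more G3SEKO than WT cells, although the intervals overlapped in the Zbtb16+Icos- gate. In experiment 1 the share in negative cells went the other way, 13.3% of WT (6.58 to 23.2%) and 7.14% of G3SEKO (0.181 to 33.9%), and in Zbtb16-Icos+ cells it was 0 of 84 and 0 of 7. In Zbtb16+Icos+ cells the shares were 1.96% and 3.70%, with wide overlapping intervals, and in Il1rl1+ cells they were 0.479% and 4%, the latter being 2 cells.

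Mpo, a myeloid gene that lymphoid cells should lack, was used to gauge free RNA. After the same thinning an Mpo read was present in 0.451% of WT Il1rl1+ cells, 1.03% of WT negative cells, 0.523% of WT Zbtb16-Icos+ cells, 1.16% of G3SEKO Zbtb16-Icos+ cells and 0.514% of G3SEKO negative cells. The S1pr1 shares of WT Il1rl1+ and WT negative cells in experiment 2 were close to those of Mpo, so no expression is read from these shares alone. In summed reads of WT negative cells, Mpo was at 1.27 CPM against 5.96 CPM for S1pr1, and 4 of the 7 myeloid markers (Lyz2, S100a8, S100a9 and Elane) were at 0. Nearly all of the myeloid sum of 109 CPM there was Fcer1g, at 107 CPM, a gene that NK cells and other lymphoid cells also use. The myeloid sum in G3SEKO negative cells of experiment 2 was 311.4 CPM, and in Zbtb16-Icos+ cells it was 32.7 CPM in WT and 107 CPM in G3SEKO, again nearly all Fcer1g. Negative cells of experiment 1 had a myeloid sum of 258 CPM in WT but 36801 CPM in G3SEKO, with S100a8 alone at 17810 CPM. The egress gene levels of that G3SEKO sum of 14 cells, above and below, thus come with much myeloid RNA. The S1pr1 shares of G3SEKO Zbtb16-Icos+ and negative cells were above those of Mpo. The free RNA of either gene was not measured, so the Mpo share is no floor for S1pr1 and decides nothing by itself.

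**Figure D2:**
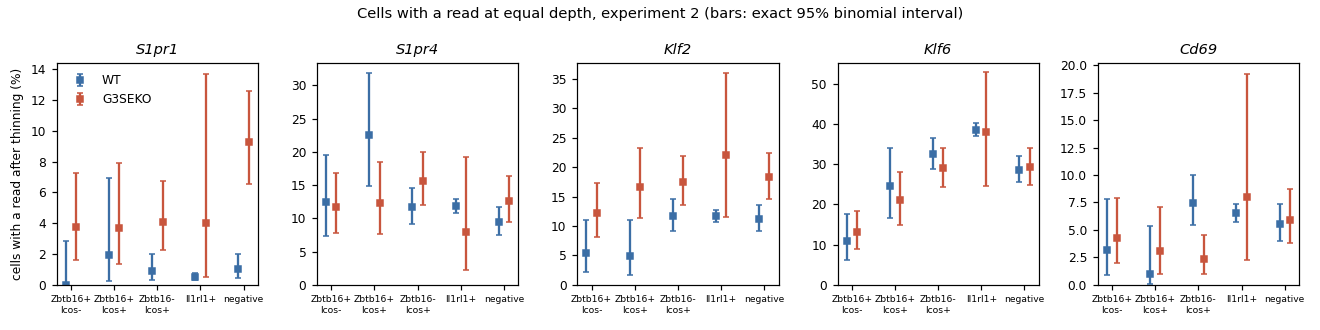
Share of cells with at least 1 read of each egress gene after thinning every cell to the same depth (y axis, percent, from 0) by gate in experiment 2, with WT in blue, G3SEKO in red and bars for the exact 95% binomial interval. S1pr1 is found in 9.25% of G3SEKO and 1.03% of WT negative cells, and Klf2 in 16.7% of G3SEKO and 4.90% of WT Zbtb16+Icos+ cells.

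The summed levels of other lymphocyte markers were also higher in G3SEKO Zbtb16-Icos+ and negative cells of experiment 2. The summed level of 6 NK and ILC1 markers (Tbx21, Eomes, Klrb1c, Ncr1, Klrd1, Il2rb) in experiment 2 was 33.3 CPM in WT and 302.5 CPM in G3SEKO Zbtb16-Icos+ cells, and 90.0 and 474 CPM in negative cells. The sum of 8 T lineage markers was 120 and 207 CPM in Zbtb16-Icos+ cells and 138 and 255 CPM in negative cells. No NK and ILC1 marker was at 0 in these 4 sums, and of the T lineage markers Cd8a was at 0 in G3SEKO negative cells. In experiment 1 the NK and ILC1 sum in Zbtb16-Icos+ cells went the other way, from 325 CPM in WT to 42.4 CPM in G3SEKO, while the T lineage sum was 152 and 235 CPM.

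Il2rb and Lef1 were the highest genes of the NK and T lineage sums in Zbtb16-Icos+ and negative cells of experiment 2. They were not among the T or NK markers used to leave out cells, so cells with only those stayed in. Without all cells that carried a T or NK marker, S1pr1 in experiment 2 was at 22.6 CPM in G3SEKO and 3.17 CPM in WT Zbtb16-Icos+ cells, and at 35.0 and 2.10 CPM in negative cells. With those cells these levels were 22.7 and 3.87 CPM, and 46.4 and 5.96 CPM. Zbtb16+Icos- cells without them were at 8.51 CPM in G3SEKO and 1.82 CPM in WT, beside 16.6 and 1.65 CPM with them. The part of those cells in the S1pr1 difference was not tested. The sums of other marker lists also stood apart between genotypes in Zbtb16-Icos+ and negative cells. No gene of these lists passed the threshold in Zbtb16-Icos+ cells, nor did S1pr1, and negative cells were not tested. In experiment 2 the sum of the LTi and ILC3 markers was 104 CPM in WT and 471 CPM in G3SEKO Zbtb16-Icos+ cells, and 203 and 662 CPM in negative cells. The sum of the 6 ILC progenitor markers was 658 and 2185 CPM in Zbtb16-Icos+ cells and 511 and 2371 CPM in negative cells. In experiment 1 the Zbtb16-Icos+ sums were 144 and 1294 CPM for the LTi and ILC3 markers and 1416 and 2188 CPM for the ILC progenitor markers. Cells with these markers were kept, and their part in the S1pr1 difference was not tested.

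Along the WT gates S1pr1 was lower in Il1rl1+ than in Zbtb16+Icos- cells by a log2 difference of -1.46 (SE 0.97, edgeR adjusted p = 0.943), and the experiments disagreed, with log2 ratios of -2.20 in experiment 1 and -0.01 in experiment 2. The sign turned with the gates set at 1 read, 1 of 12 alternatives, where WT Zbtb16+Icos- cells of experiment 2 held no S1pr1 read. In experiment 1 the order of the WT gates ran from negative (82.5 CPM) through the 2 Zbtb16+ gates to Zbtb16-Icos+ and Il1rl1+. In experiment 2 the WT levels lay between 1.64 and 6.94 CPM, and neighbours in their order did not differ beyond the spread between experiments.

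S1pr4, the S1P receptor of blood cells, was present in every WT gate at similar levels. Its WT level in experiments 1 and 2 was 41.1 and 74.1 CPM in Zbtb16+Icos-, 78.0 and 99.7 CPM in Zbtb16+Icos+, 69.2 and 97.6 CPM in Zbtb16-Icos+, 84.7 and 91.2 CPM in Il1rl1+ and 96.8 and 89.5 CPM in negative cells. The last 4 gates overlapped each other. Zbtb16+Icos- cells had the lowest level in both experiments, and Il1rl1+ cells stood above them by 0.70 on the log2 scale (SE 0.93, edgeR adjusted p = 1).

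In G3SEKO cells of experiment 2 S1pr4 was at 62.7, 49.8, 88.0, 53.0 and 79.3 CPM in the same order of gates, below the WT level of that experiment in each. Thinned to equal depth, Zbtb16-Icos+ cells of that experiment turned, with 102.9 CPM in G3SEKO and 98.6 CPM in WT. In experiment 1 it was at 2.14, 119.9, 97.7, 1.48 and 78.5 CPM, above WT in Zbtb16+Icos+ and Zbtb16-Icos+ cells. There 1 cell supplied 55.5% and 94.2% of the G3SEKO reads, and with cells thinned to equal depth G3SEKO was below WT in both, at 99.0 against 109.2 CPM and 42.4 against 46.0 CPM. The genotypes did not overlap in the Il1rl1+ and negative gates, with G3SEKO below WT. The Il1rl1+ value of G3SEKO in experiment 1 is that of 2 cells. The log2 differences between genotypes were -0.95 (SE 0.95), 0.02 (SE 0.93), 0.18 (SE 0.93) and -1.0 (SE 1.21) in the 4 gates tested, with edgeR adjusted p from 0.906 to 1. At equal depth in experiment 2, an S1pr4 read was found in 22.5% of WT (14.9 to 31.9%) and 12.3% of G3SEKO (7.71 to 18.4%) Zbtb16+Icos+ cells. In Zbtb16-Icos+ cells the order was the other way, 11.7% of WT (9.16 to 14.6%) and 15.7% of G3SEKO cells (11.98 to 19.9%), and both pairs of intervals overlapped.

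Of the other S1P receptor genes, named after their values were seen, S1pr2 ranged in WT sums from 4.04 to 22.0 CPM and S1pr5 from 0 to 1.11 CPM. S1pr3 was at most 8.01 CPM in WT sums and reached 17.4 CPM in G3SEKO negative cells of experiment 2. Of the 30 genes of the S1P pathway list (receptors, kinases, phosphatases, transporters and signal proteins), 29 could be tested, and none passed the threshold in any of the 7 comparisons. Their median log2 difference between WT Il1rl1+ and Zbtb16+Icos- cells was 0.32, beside 0.10 for all genes. Between genotypes in Zbtb16-Icos+ cells it was 0.04, beside -0.26 for all genes.

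Klf2, which encodes the activator of S1pr1, was higher in G3SEKO than in WT cells of every gate in experiment 2. In WT cells its level in experiments 1 and 2 was 28.3 and 32.1 CPM in Zbtb16+Icos-, 72.6 and 32.2 CPM in Zbtb16+Icos+, 51.5 and 78.9 CPM in Zbtb16-Icos+, 48.4 and 95.8 CPM in Il1rl1+ and 267.8 and 116.7 CPM in negative cells. In G3SEKO cells it was 1.13 and 80.9 CPM, 328.4 and 136.4 CPM, 39.5 and 147.9 CPM, 237.1 and 196.1 CPM, and 225.1 and 200.3 CPM. The genotypes did not overlap in the Zbtb16+Icos+ and Il1rl1+ gates. In the latter, the G3SEKO value of experiment 1 is that of 2 cells, 1 of them with a T or NK marker, whose NK and ILC1 markers summed to 2952 CPM against 21.1 CPM in WT. In the Zbtb16+Icos- and Zbtb16-Icos+ gates the G3SEKO sums lay on both sides of the WT sums.

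In Zbtb16+Icos+ cells the log2 difference of Klf2 between genotypes was 2.15 (SE 1.22, edgeR adjusted p = 0.898), and the 2 experiments gave 2.13 ± 0.070 (mean ± SD of the log2 ratio, n = 2). In experiment 1, 1 of the 9 G3SEKO cells supplied 79.3% of these reads. The log2 difference was 0.28 (SE 1.21) in Zbtb16+Icos-, 0.42 (SE 1.17) in Zbtb16-Icos+ and 1.22 (SE 1.41) in Il1rl1+ cells, none of them called. Without the cells that carried Fos it was -0.21 in Zbtb16+Icos- cells and 0.11 in Il1rl1+ cells.

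At equal depth in experiment 2, a Klf2 read was found in 4.90% of WT (1.61 to 11.1%) and 16.7% of G3SEKO (11.3 to 23.3%) Zbtb16+Icos+ cells, with intervals that did not overlap. The same was true of negative cells, at 11.2% (9.05 to 13.6%) and 18.3% (14.5 to 22.5%). In Zbtb16+Icos- cells the shares were 5.47% and 12.2%, in Zbtb16-Icos+ cells 11.7% and 17.4%, and in Il1rl1+ cells 11.7% and 22%, with overlapping intervals. All 5 gates thus had the higher share in G3SEKO cells.

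Fos, an immediate early gene that dissociation of tissue can induce, differed between the experiments and, in experiment 2, between the genotypes. It was at 0 to 38.5 CPM in all sums of experiment 1. In experiment 2 Fos was at 276, 220, 419, 526 and 436 CPM in WT cells and at 572, 724, 749, 632 and 839 CPM in G3SEKO cells, in the order of the gates. Fos was also at the gate in 42.6% of WT cells with Klf2 and 31.1% of those without it, and in 60.9% and 44.4% of G3SEKO cells, in experiment 2. Without the cells that carried Fos, Klf2 in experiment 2 was at 128.8 CPM in G3SEKO and 24.9 CPM in WT Zbtb16+Icos+ cells, beside 136.4 and 32.2 CPM with them. In Il1rl1+ cells Klf2 was at 73.5 CPM in G3SEKO and 84.5 CPM in WT without them, and the order of the genotypes turned. The part of Fos cells in these differences was not tested.

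Along the WT gates Klf2 was higher in Il1rl1+ than in Zbtb16+Icos- cells by 1.27 on the log2 scale (SE 1.19, edgeR adjusted p = 1). The 2 gates did not overlap, and the log2 ratios were 0.78 and 1.58 in experiments 1 and 2. With all cells thinned to equal depth, edgeR called this comparison, with a log2 difference of 1.91 and an adjusted p of 0.0485. Over its 12 alternatives the adjusted p ranged from 0.0485 to 1.

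**Figure D3:**
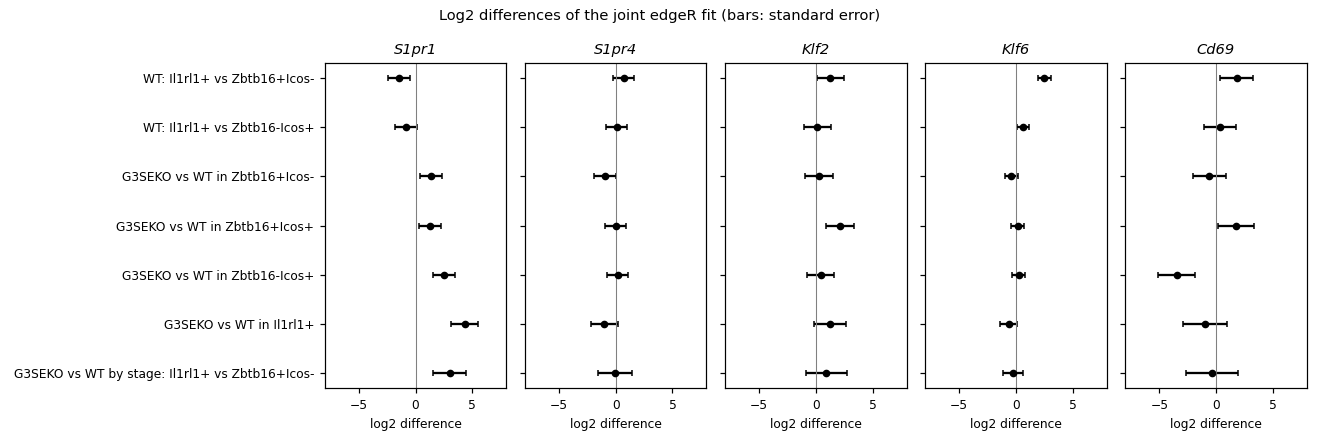
Log2 difference (x axis) of each egress gene in each of the 7 comparisons (y axis) from the joint edgeR fit, with bars for the standard error. Klf6 is at 2.52 between WT Il1rl1+ and Zbtb16+Icos- cells, S1pr1 at 4.33 between genotypes in Il1rl1+ cells and Cd69 at -3.47 between genotypes in Zbtb16-Icos+ cells, and none of the values shown has an adjusted p under 0.166.

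Klf6, a Kruppel-like factor gene, was higher in the later WT gates in both experiments. Its WT level in experiments 1 and 2 was 55.2 and 37.0 CPM in Zbtb16+Icos-, 34.8 and 114.3 CPM in Zbtb16+Icos+, 153.6 and 204.2 CPM in Zbtb16-Icos+, 239.6 and 305.1 CPM in Il1rl1+ and 180.3 and 281.1 CPM in negative cells. As means over the 2 experiments these were 46.1 ± 12.8, 74.6 ± 56.2, 179 ± 35.8, 272 ± 46.3 and 231 ± 71.3 CPM (± SD, n = 2). Both Zbtb16+ gates lay below the Zbtb16-Icos+ gate without overlap, and the Zbtb16-Icos+ gate lay below the Il1rl1+ gate without overlap. The 2 Zbtb16+ gates overlapped each other, and the negative cells overlapped both Zbtb16-Icos+ and Il1rl1+ cells.

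Between WT Il1rl1+ and Zbtb16+Icos- cells the log2 difference of Klf6 was 2.52 (SE 0.60), with an unadjusted p of 0.00126 and an edgeR adjusted p of 0.166. It was called by DESeq2 (2.48, adjusted p = 0.0057), by edgeR in a fit of these 2 gates alone (2.62, adjusted p = 0.000716) and by edgeR with cells thinned to equal depth (2.37, adjusted p = 0.000497). Over its 12 alternatives the adjusted p ranged from 0.000497 to 1 and the direction was the same in all 12. The last step, from Zbtb16-Icos+ to Il1rl1+ cells, was 0.62 on the log2 scale (SE 0.56, edgeR adjusted p = 1), with log2 ratios of 0.64 and 0.58 in the 2 experiments. In the thinned cells of experiment 2, a Klf6 read was found in 10.9% (6.11 to 17.7%), 24.5% (16.5 to 34.0%), 32.6% (28.8 to 36.6%) and 38.6% (37.0 to 40.2%) of WT cells along the first 4 gates. In experiment 1 these shares were 12.5%, 5.88%, 35.7% and 44.1%.

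The sum of immediate early genes was also higher in WT Il1rl1+ than in Zbtb16+Icos- cells, although none of the 22 tested passed the threshold. This sum over the 22 genes found of a list of 23, which does not hold Klf6, went from 894 to 2150 CPM in experiment 1 and from 2178 to 5109 CPM in experiment 2 between Zbtb16+Icos- and Il1rl1+ cells. Without the cells that carried Fos, the log2 difference of Klf6 was 2.51 (edgeR adjusted p = 0.244), beside 2.52 with them. In experiment 1 this left out few cells, with 417 of 424 WT Il1rl1+ cells kept. The part of the immediate early genes was not tested.

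In experiment 1 the WT Il1rl1+ cells could be split by hashtag, and Klf6 was at 240.7, 239.5 and 238.5 CPM under the 3 WT hashtags. In Zbtb16-Icos+ cells it was uneven, at 75.9, 137.1 and 288.5 CPM, and under the third hashtag it was higher there than in Il1rl1+ cells. In Zbtb16+Icos- cells it was at 68.5, 72.9 and 19.2 CPM. In Il1rl1+ cells the other egress genes were less even, for example Klf2 at 37.8, 54.8 and 53.7 CPM and Cd69 at 9.30, 28.4 and 19.7 CPM. Among WT Il1rl1+ cells of experiment 2, Klf6 was at 289 CPM in those with Zbtb16, 318 CPM in those with Icos and no Zbtb16, and 290 CPM in those with neither.

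In experiment 2, G3SEKO cells had the same order of Klf6 along the gates as WT cells. There it was at 54.7, 81.2, 150.7, 225.4 and 223.2 CPM in the order of the gates, and in experiment 1 at 23.4, 70.2, 247.6, 68.2 and 54.3 CPM. The genotypes overlapped in all gates but Il1rl1+, where G3SEKO was below WT and its value in experiment 1 is that of 2 cells. Between genotypes the log2 differences were -0.39 (SE 0.57), 0.16 (SE 0.57), 0.26 (SE 0.56) and -0.64 (SE 0.72) in the 4 gates tested, with edgeR adjusted p from 0.901 to 1. At equal depth in experiment 2, Klf6 was found in 38% of G3SEKO (24.7 to 52.8%) and 38.6% of WT Il1rl1+ cells, and in 29.0% (24.3 to 34.1%) and 32.6% of Zbtb16-Icos+ cells.

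Of the 17 genes of the Kruppel-like factor list, 14 could be tested, and none passed the threshold in any of the 7 comparisons. Between WT Il1rl1+ and Zbtb16+Icos- cells, 13 of the 14 had a positive log2 difference, with a median of 0.74 beside 0.10 for all genes. Between genotypes in Il1rl1+ cells 3 of the 14 were positive, with a median of -0.75 beside -0.68 for all genes.

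Cd69, which encodes the antigen that takes the S1P receptor off the surface, was lowest in WT Zbtb16+Icos+ cells. In WT cells its level in experiments 1 and 2 was 5.10 and 15.1 CPM in Zbtb16+Icos-, 0.878 and 1.01 CPM in Zbtb16+Icos+, 14.3 and 35.9 CPM in Zbtb16-Icos+, 18.8 and 43.9 CPM in Il1rl1+ and 32.9 and 45.4 CPM in negative cells. The Zbtb16+Icos+ gate did not overlap any other WT gate, whereas the last 3 gates overlapped each other. From Zbtb16+Icos+ to Zbtb16-Icos+ cells the log2 ratio was 4.47 ± 0.74 (mean ± SD, n = 2), a step that was not among the comparisons tested. The Zbtb16+Icos+ sums held 23 and 8 Cd69 reads, of which 1 cell supplied 52.2% and 62.5%. With the gates set at 1 read, the Zbtb16+Icos+ level in experiment 2 was 13.1 CPM, so both the low level and the size of the ratio depend on the gate.

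In G3SEKO cells Cd69 was at 1.64 and 19.4 CPM in Zbtb16+Icos-, 0.821 and 15.5 CPM in Zbtb16+Icos+, 0.167 and 9.10 CPM in Zbtb16-Icos+, 0 and 41.3 CPM in Il1rl1+ and 0.118 and 41.8 CPM in negative cells. The genotypes did not overlap in the Zbtb16-Icos+ gate, where G3SEKO was below WT by a log2 difference of -3.47 (SE 1.62), with an unadjusted p of 0.0535 and an edgeR adjusted p of 0.910. The log2 ratio there was -5.90 in experiment 1 and -1.97 in experiment 2, so the size differed widely between experiments. The 7 G3SEKO cells of experiment 1 held 1 Cd69 read in all, so the ratio of that experiment rests on it.

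At equal depth in experiment 2, a Cd69 read was found in 7.49% of WT (5.47 to 9.96%) and 2.32% of G3SEKO (1.01 to 4.52%) Zbtb16-Icos+ cells, with intervals that did not overlap. In the other gates the shares in WT and G3SEKO cells were 3.13% and 4.23% in Zbtb16+Icos-, 0.98% and 3.09% in Zbtb16+Icos+, 6.51% and 8% in Il1rl1+ and 5.53% and 5.91% in negative cells, with overlapping intervals. The log2 difference between genotypes was -0.60 (SE 1.46) in Zbtb16+Icos-, 1.78 (SE 1.57) in Zbtb16+Icos+ and -0.97 (SE 1.90) in Il1rl1+ cells, with none called. Without the cells that carried Fos, Cd69 in Zbtb16-Icos+ cells of experiment 2 was at 13.0 CPM in G3SEKO and 21.9 CPM in WT, and the fitted log2 difference was -2.28. In Zbtb16+Icos+ cells the difference then turned to -0.27. There 10 of the 12 alternatives kept the sign, and the lowest value was -2.02.

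Within single cells S1pr1 and Klf2 were found together. Counting a gene as present at the same level as the gate genes, Klf2 was present in 10 of 15 WT cells with S1pr1 in experiment 1 (66.7%, interval 38.4 to 88.2%) and in 7.36% of those without it. In experiment 2 it was present in 11 of 17 WT cells with S1pr1 (64.7%, 38.3 to 85.8%) and 9.70% of those without, and in 33 of 50 G3SEKO cells with S1pr1 (66%, 51.2 to 78.8%) and 13.6% of those without. The 3 G3SEKO cells with S1pr1 in experiment 1 held 1 with Klf2. S1pr1 itself was present in 17 of 5130 WT and 50 of 1159 G3SEKO cells of experiment 2.

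Within single gates the numbers are small. In G3SEKO cells of experiment 2, Klf2 was present in 2 of 5, 4 of 4, 8 of 11, 1 of 1 and 18 of 29 cells with S1pr1 in the order of the gates, against 10.6 to 16.3% of those without it. In WT cells of experiment 2 it was present in 1 of 3 Zbtb16-Icos+, 6 of 9 Il1rl1+ and 4 of 5 negative cells with S1pr1, and the Zbtb16+ gates had no cell with S1pr1. In WT cells of experiment 1 it was present in 0 of 2, 1 of 2, 3 of 4 and 6 of 7 such cells of the Zbtb16+Icos-, Zbtb16+Icos+, Il1rl1+ and negative gates, and Zbtb16-Icos+ had none. These counts are descriptions, since cells of a library share its RNA pool and depth. The median reads per cell with and without S1pr1 were 547408 and 395458 in WT cells of experiment 1, 54255 and 29646 in WT cells of experiment 2, and 37906.5 and 43286 in G3SEKO cells of experiment 2, so the S1pr1 cells were the deeper ones in both WT groups but not in the G3SEKO group.

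The other egress genes differed less between cells with and without S1pr1. Klf6 was present in 40% and 33.0% of WT cells of experiment 1, 29.4% and 30.2% of WT cells of experiment 2 and 42% and 19.7% of G3SEKO cells of experiment 2. S1pr4 was present in 26.7% and 12.6%, 23.5% and 10.2%, and 18% and 9.65% of the same groups, and Cd69 in 6.67% and 2.85%, 11.8% and 5.05%, and 4% and 2.80%. A T or NK marker was present in 33.3% of WT cells with S1pr1 and 7.96% without it in experiment 1, in 23.5% and 1.76% of WT cells in experiment 2, and in 26% and 12.5% of G3SEKO cells. The part of such cells in the joint presence of S1pr1 and Klf2 was not tested.

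**Figure D4:**
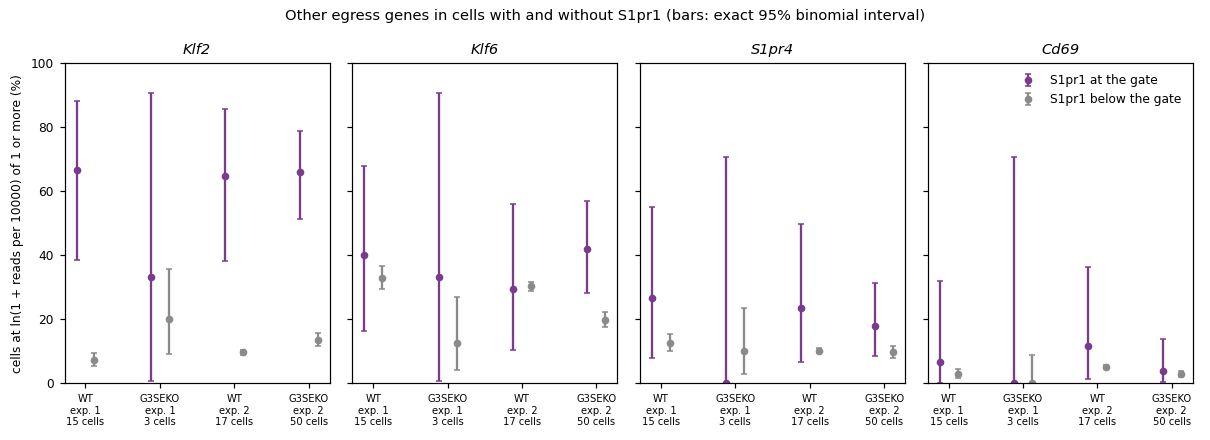
Share of cells in which Klf2, Klf6, S1pr4 or Cd69 was present (y axis, percent, 0 to 100) among cells with S1pr1 (purple) and without it (grey), for each genotype and experiment (x axis, with the number of cells with S1pr1), all gates together, with bars for the exact 95% binomial interval. Klf2 stands at 64.7 to 66.7% of cells with S1pr1 in the 3 groups with 15 or more such cells, against 7.36 to 13.6% of cells without it.

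Over the 17 sums with at least 10 cells, the Pearson correlation of log2(CPM + 1), centred within each experiment, was used to name the genes most like each egress gene among 9739 candidates. For S1pr1 these were Ahnak (0.83), Nr2f6 (0.80) and Lsp1 (0.79), and for S1pr4 Vcl (0.96), Evl (0.96) and Il27ra (0.95). For Klf2 they were Ms4a4b (0.93), Atp1b1 (0.93) and Tars (0.90), for Klf6 Shisa5 (0.95), Klf3 (0.94) and Ttc39b (0.94), and for Cd69 Rgs1 (0.86), Eef1d (0.86) and Amd2 (0.85). The top correlation of S1pr1 was the lowest of the 5. Among the egress genes themselves the correlation was 0.76 for Klf2 and S1pr4, 0.67 for Klf6 and Cd69, 0.51 for Klf6 with either Klf2 or S1pr4, and 0.45 for S1pr1 and Klf2. The other 5 pairs lay between -0.08 and 0.32. The sums share 2 libraries and the points are not independent, so these values are descriptions.

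Klf3, the Kruppel-like factor gene most like Klf6, was at 10.2 and 21.1 CPM in WT Zbtb16+Icos- cells and at 113.6 and 216.4 CPM in WT Il1rl1+ cells of experiments 1 and 2. Its log2 difference was 3.47, with an edgeR adjusted p of 0.445. Klf3 was picked for its likeness to Klf6 over these sums, so a shared pattern is no finding.

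Of the 15 genes of bone marrow retention and adhesion, among them genes of integrins and chemokine receptors, all could be tested. The chemokine receptor gene Cxcr6 was higher in WT Il1rl1+ than in Zbtb16+Icos- cells, and it alone passed the threshold in any comparison. Its log2 difference was 2.92 (SE 0.34, edgeR adjusted p = 0.00383), and its level went from 45.6 to 442 CPM in experiment 1 and from 74.2 to 395 CPM in experiment 2. The median of the list in that comparison was -0.01, beside 0.10 for all genes. Of 23 immediate early genes 22 could be tested, none passed the threshold in any comparison, and their median log2 difference in the same comparison was 1.10.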

How the data were processed

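αLPs were profiled by TAS-Seq on the BD Rhapsody platform in 2 experiments, with hashtag antibodies for genotype. The authors aligned reads with Bowtie2 to a GRCm38/mm10 reference and counted reads per gene and cell; the deposited values are raw counts of reads, with no collapse to molecules stated, and Seurat 4 is named in their processing notes. The depth differed widely between experiments, as given above.

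Cells were kept by the read limits stated in the study's methods and at most 10% mitochondrial reads, with a hashtag prefix of 1 genotype and an Id2 value of at least 1. Doublets were treated by leaving out cells that the authors called doublets by hashtag (1 in experiment 1 and 100 in experiment 2), and no other caller was run. Of 1033 and 7630 listed cells, 801 and 7621 passed the read and mitochondrial limits, and the Id2 limit left out 76 and 1233. Counts were summed per gate, genotype and experiment, and sums of at least 5 cells were tested with edgeR 4.0.16 (R 4.3.3, TMM, filterByExpr). Both genotypes and all gates of an experiment shared a library, which is where the pairing comes from; deviations of sums from 1 experiment correlated at 0.059 to 0.290 over the 9 groups with both experiments. Cells are not replicates, and the 2 experiments are, so p-values measure the spread between these sums. DESeq2 1.42.0, normalization, filters, block, gate, depth and left-out cells were varied. Log2 ratios per experiment had 2 reads added to each sum. The members and lists were chosen with earlier results of these data known. Named genes are the members, list genes past the threshold (at most 5 a list and comparison) and the 3 genes most like each member with a mean of at least 10 CPM. A gene that was not called may still differ. The values of 1 gene seen beside the members are not reported here.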

Additional observations from a re-analysis of the deposited data

How the results depend on the processing

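The number of genes called, in the order Il1rl1+ against Zbtb16+Icos- (WT), Il1rl1+ against Zbtb16-Icos+ (WT), genotype in Zbtb16+Icos-, Zbtb16+Icos+, Zbtb16-Icos+ and Il1rl1+, and the interaction, was 54, 3, 0, 0, 0, 4 and 0. It was 593, 55, 56, 136, 90, 405 and 167 with DESeq2 and 484, 40, 1, 0, 69, 148 and 48 with cells thinned to equal depth. Without the replicate block (pairing by experiment) it was 32, 3, 0, 0, 0, 2 and 1. Fits of only the sums compared gave 1290 and 0 for the WT comparisons and 0 for the others, and genotype in Il1rl1+ could not be fitted alone. A gate at 1 read gave 0 in all 7, and moved nearly all cells of experiment 1 into the Il1rl1+ gate. At least 10 cells per sum gave 128 and 1 for the WT comparisons and 13 for genotype in Il1rl1+. Genotype in Il1rl1+ had 10 with RLE size factors, 8 with hashtags by a 2-fold rule and 8 without Fos cells, and the interaction had 1 with RLE and 1 without Fos cells. Without T and NK marker cells the WT comparisons had 35 and 1. Leaving out Fos cells or T and NK marker cells was chosen after seeing the data. The cause of these shifts was not tested. Without either experiment no residual degrees of freedom remain, so no count was made. Of 415 values of the egress genes under these settings, 410 stayed on their side of the threshold and 5 passed it, all named above (Klf6 3 times, Klf2 and S1pr1). The replicate block changed no call of an egress gene. In the joint fit none of the 35 differences of the egress genes was called, and 19 of them turned sign under at least 1 alternative, 14 of them with the gate at 1 read and 7 when thinned. Of the 50 levels, 39 stayed within 1 SD without the Id2 limit, 44 with the 2-fold hashtag rule, 36 when thinned, 39 without Fos cells, 37 without T and NK marker cells and 37 as means of cell values. With the gate at 1 read, only 7 of the 20 levels with enough cells did. S1pr1 in WT sums of experiment 2 rested on few cells.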
